A study of Mus musculus with 9 samples.

Results

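The cartilage collagen genes described here are the 7 genes *Col2a1*, *Col9a1*, *Col9a2*, *Col9a3*, *Col10a1*, *Col11a1* and *Col11a2*. They were chosen by symbol among the 54534 genes listed in the deposited count tables, which name 44 collagen chain genes, and all 7 were found. They were read in single-cell RNA sequencing libraries of mouse knee joints from *Gdf5-Cre;Tom;Pdgfrα-H2BGFP* mice, in which the tdTomato reporter (Tom) labels cells descended from the embryonic joint interzone that once expressed *Gdf5*, and nuclear green fluorescent protein (GFP) marks cells with an active *Pdgfrα* promoter. Every group carried all 3 alleles. Live cells released with collagenase were sorted into Tom+ cells (*Gdf5*-lineage) and Tom-GFP+ cells (other *Pdgfrα*-expressing cells). Uninjured mice, aged 11 weeks in the study, gave the steady-state libraries, 2 of Tom+ and 1 of Tom-GFP+ cells. Mice aged 12 weeks, 6 days after arthrotomy of the right knee with a full-thickness scratch of the trochlear cartilage, gave the injured libraries, 4 of Tom+ and 2 of Tom-GFP+ cells. No sham-operated library was analysed, so the scratch, the opening of the joint and the week of age cannot be told apart. The libraries came from separate mice within a group, and Tom-GFP+ cells came from mice matched to Tom+ ones.

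Collagen II, a homotrimer of the *Col2a1* product, is the main fibril of hyaline cartilage. Collagen XI, built from the products of *Col11a1*, *Col11a2* and a form of the *Col2a1* chain, sits within these fibrils and limits their width, and collagen IX, a heterotrimer of the *Col9a1*, *Col9a2* and *Col9a3* chains, decorates their surface and links them to other matrix proteins. Collagen X, the homotrimer of the *Col10a1* product, is a network-forming collagen made by hypertrophic chondrocytes next to mineralising cartilage. The sort was aimed at fibroblasts, so the chondrocytes read here are those that the digest and the gates let through.

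The 7 genes lie on 7 chromosomes of GRCm38. *Col2a1* (ENSMUSG00000022483) lies at chr15:97975602-98004695 on the minus strand, and the other 6 on the plus strand. These are *Col9a1* (ENSMUSG00000026147) at chr1:24177610-24252684, *Col9a2* (ENSMUSG00000028626) at chr4:121039385-121055322, *Col9a3* (ENSMUSG00000027570) at chr2:180597790-180622189, *Col10a1* (ENSMUSG00000039462) at chr10:34389981-34397085, *Col11a1* (ENSMUSG00000027966) at chr3:114030540-114220718 and *Col11a2* (ENSMUSG00000024330) at chr17:34039437-34066685. *Col10a1* had at most 3 exons in a transcript model, while the other members had from 32 (*Col9a2*) to 67 (*Col11a1*). *Col10a1* lies within *Nt5dc1* and *Col9a3* overlaps *Tcfl5*, each on the opposite strand, and whether strand was used in counting is not given in the sources used here, so reads of these pairs may not be told apart.

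The promoters of 3 members are shown, because these genes differed most in how far their expression reached beyond chondrocytes: *Col10a1* was almost restricted to a few chondrocytes, *Col11a2* was also read in osteoblast-lineage cells, and *Col11a1* in tenocyte-lineage and injury-induced fibroblast cells as well. They are the 250 bases before the RefSeq start on GRCm38.p6, written 5′ to 3′, with letters in capitals where a searched motif was found on either strand.
Col10a1, chr10:34389731-34389980, + strand: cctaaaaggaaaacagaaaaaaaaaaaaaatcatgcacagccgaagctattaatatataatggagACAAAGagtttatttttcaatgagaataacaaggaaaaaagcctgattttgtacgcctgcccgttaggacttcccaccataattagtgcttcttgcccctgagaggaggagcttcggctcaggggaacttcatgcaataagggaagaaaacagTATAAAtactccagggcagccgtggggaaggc
Col11a2, chr17:34038888-34039137, + strand: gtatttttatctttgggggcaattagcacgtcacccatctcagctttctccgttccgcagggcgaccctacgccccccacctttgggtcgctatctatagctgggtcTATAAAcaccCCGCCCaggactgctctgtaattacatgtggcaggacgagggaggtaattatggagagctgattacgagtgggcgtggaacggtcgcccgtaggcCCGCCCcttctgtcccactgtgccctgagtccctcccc
Col11a1, chr3:114030290-114030539, + strand: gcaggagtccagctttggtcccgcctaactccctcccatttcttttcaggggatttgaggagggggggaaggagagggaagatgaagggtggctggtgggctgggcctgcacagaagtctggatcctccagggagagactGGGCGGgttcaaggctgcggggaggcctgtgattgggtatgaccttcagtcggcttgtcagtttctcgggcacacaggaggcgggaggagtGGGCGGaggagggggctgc

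The motifs searched were the SOX half-sites ACAATG and ACAAAG, the TATA box TATAAA, the GC box GGGCGG and the RUNX core TGTGGT. The *Col10a1* window held 1 ACAAAG and 1 TATAAA, the *Col11a2* window 1 TATAAA and 2 GC boxes, and the *Col11a1* window 2 GC boxes and no TATAAA. Among 32851 mouse promoter windows of this length, 16.5% held ACAAAG, 10.7% ACAATG, 12.4% TATAAA, 32.7% GGGCGG and 14% TGTGGT. The *Col9a2* window held 2 GC boxes, and the windows of the pair of *Col9a1* starts held none of the 5 motifs. A match describes these letters and is not evidence of binding. The *Col2a1* and *Col9a3* promoters are named only.

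After cells with under 500 genes, under 1000 unique molecular identifiers (UMIs) or over 10% mitochondrial UMIs were left out, 4788 of 5161 barcodes remained, of which 4637 were stromal. Total UMIs ranged from 2866464 to 15033902 per library, and the median per cell from 8050.5 to 8647 in steady-state and from 12223 to 18567 in injured libraries. At most 2 barcodes were shared between any pair of libraries. Cells were clustered without the 7 members among the features and were named by marker genes that include no cartilage collagen. The chondrocyte-lineage-like class, in which all 9 of its 9 markers were higher than in the other cells, held 145 cells, with 7, 36 and 11 in the steady-state libraries (Tom+ 1, Tom+ 2 and Tom-GFP+) and 18, 10, 23, 22, 11 and 7 in the injured ones (Tom+ 1 to 4, then Tom-GFP+ 1 and 2). Libraries are given in this order throughout. Levels below are in CPM, the UMIs of a gene per 1000000 UMIs of the same cells, summed over the cells of a class within a library. In such sums fewer expressing cells and less RNA per cell cannot be told apart. The summed level of the 9 chondrocyte markers in this class was lowest in injured Tom+ library 2, at 4669 CPM, against 12269 to 33894 in the other 8 libraries. Summed immune markers in the class reached at most 108 CPM and erythroid markers were at 0.

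The chondrocyte-lineage class made up 3.13% of stromal cells and 2.37% of their UMIs, and it held most of the cartilage collagen UMIs of the stroma. It held 98.3% of *Col2a1* UMIs (22288 of 22670), 96.4% of *Col9a1*, 97.5% of *Col9a2*, 98.5% of *Col9a3* and 99.1% of *Col10a1* UMIs (1026 of 1035). For the collagen XI chains the share was lower, 86.5% for *Col11a2* (2366 of 2735) and 58.1% for *Col11a1* (3177 of 5466). The class ranked first among stromal classes in 9 of 9 libraries for *Col2a1*, *Col9a1*, *Col9a3* and *Col11a2*. It ranked first in 8 of 9 for *Col9a2*, which was at 0 there in injured Tom+ library 2. It also ranked first in 8 of 9 for *Col11a1*, which in injured Tom-GFP+ library 2 was at 1117 CPM in chondrocyte-lineage and 1323 in osteoblast-lineage cells. *Col10a1* was read in this class in 4 libraries and was at 0 in the other 5.

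**Figure D1:**
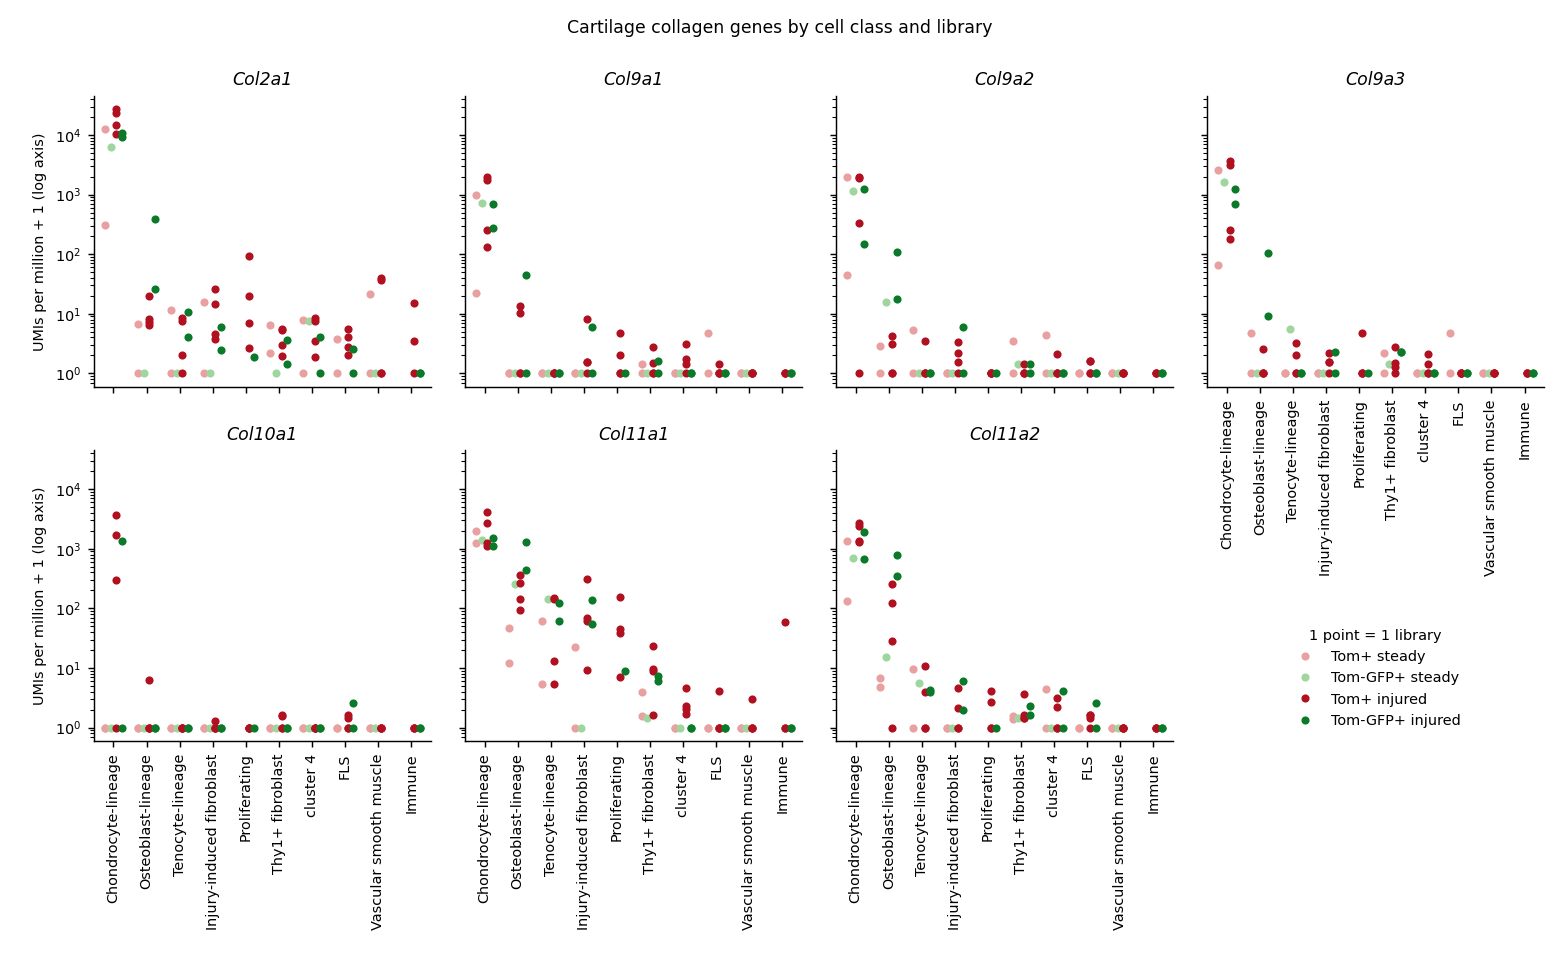
Level of each of the 7 genes in 10 of the cell classes, as CPM plus 1 on a log axis, with 1 point per library coloured by lineage and state. Chondrocyte-lineage cells hold the highest level of collagens II and IX in nearly every library, and *Col11a1* also reaches 1323 CPM in osteoblast-lineage cells.

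Within the class the chains differed in how many cells held them. UMIs of *Col11a1* were found in 91.0% of the 145 cells (exact 95% interval 85.2 to 95.1), at a median depth of 8704 UMIs per cell. *Col2a1* UMIs were found in 73.8% (65.8 to 80.7), *Col11a2* in 66.9%, *Col9a3* in 58.6%, *Col9a2* in 52.4%, *Col9a1* in 40.0% (32.0 to 48.5) and *Col10a1* in 8.97% (4.86 to 14.8). Intervals and floors here cover counting error only. Thinned to 5000 UMIs per cell, with 25 shallower cells left out, the shares ranged from 9.17% (*Col10a1*) to 92.5% (*Col11a1*). In the 151 immune-like and endothelial-like cells, which should lack these genes, at a median of 7974 UMIs, 5.96% held a *Col2a1* UMI and 5.30% a *Col11a1* UMI, 1.32% held *Col11a2*, 0.662% *Col9a2*, and none held *Col9a1*, *Col9a3* or *Col10a1*. The order of the shares thus put *Col11a1*, a minor chain of the fibril, ahead of *Col2a1*.

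Most cells with another chain also held *Col2a1*. Of cells with a *Col9a1* UMI, 57 of 58 also held *Col2a1*, as did 73 of 76 with *Col9a2*, 83 of 85 with *Col9a3*, 90 of 97 with *Col11a2* and 13 of 13 with *Col10a1*. *Col11a1* was the least nested, and 26 of its 132 cells held no *Col2a1* UMI. The UMIs themselves were unevenly spread. The 10 highest cells held 55.6% of the *Col2a1* UMIs of the class, 55 to 55.4% of those of the collagen IX chains, 42.4% of *Col11a1*, 43.4% of *Col11a2* and 98.4% of *Col10a1*. Sums over a library therefore rested on few cells, and in injured Tom+ library 1 a single cell gave 84.1% of the *Col2a1* UMIs.

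*Col2a1*, the fibril-forming chain, was read at 303, 12543 and 6363 CPM in the chondrocyte-lineage cells of the steady-state libraries and at 14848, 10310, 22988, 26865, 10806 and 9194 in the injured ones (mean 12691 ± 8113, SD, n = 9). Steady-state Tom+ library 1, with 7 cells and 14 *Col2a1* UMIs, lay below all the others, and the 2 highest libraries were injured Tom+ ones. *Col11a1* varied least, with 1232, 2014 and 1409 in the steady state and 1240, 1093, 2671, 4214, 1541 and 1117 after injury (mean 1837 ± 1027). It was the only fibril chain that steady-state Tom+ library 1 held at the level of other libraries. *Col11a2* was at 130, 1351 and 691 and then at 1343, 1278, 2382, 2745, 672 and 1915 (mean 1390 ± 844).

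*Col9a1*, the first chain of collagen IX, was read at 21.6, 976 and 726 CPM in the steady state and at 131, 249, 1949, 1781, 693 and 277 after injury. *Col9a2* was at 43.2, 1941 and 1147 and then at 328, 0, 1949, 1884, 1220 and 149. *Col9a3* was at 64.9, 2630 and 1645 and then at 251, 177, 3183, 3636, 1262 and 692. Injured Tom+ libraries 3 and 4 were the 2 highest for *Col9a1* and *Col9a3*, while for *Col9a2* steady-state Tom+ library 2 lay between them, and the steady-state and injured ranges overlapped for each.

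**Figure D2:**
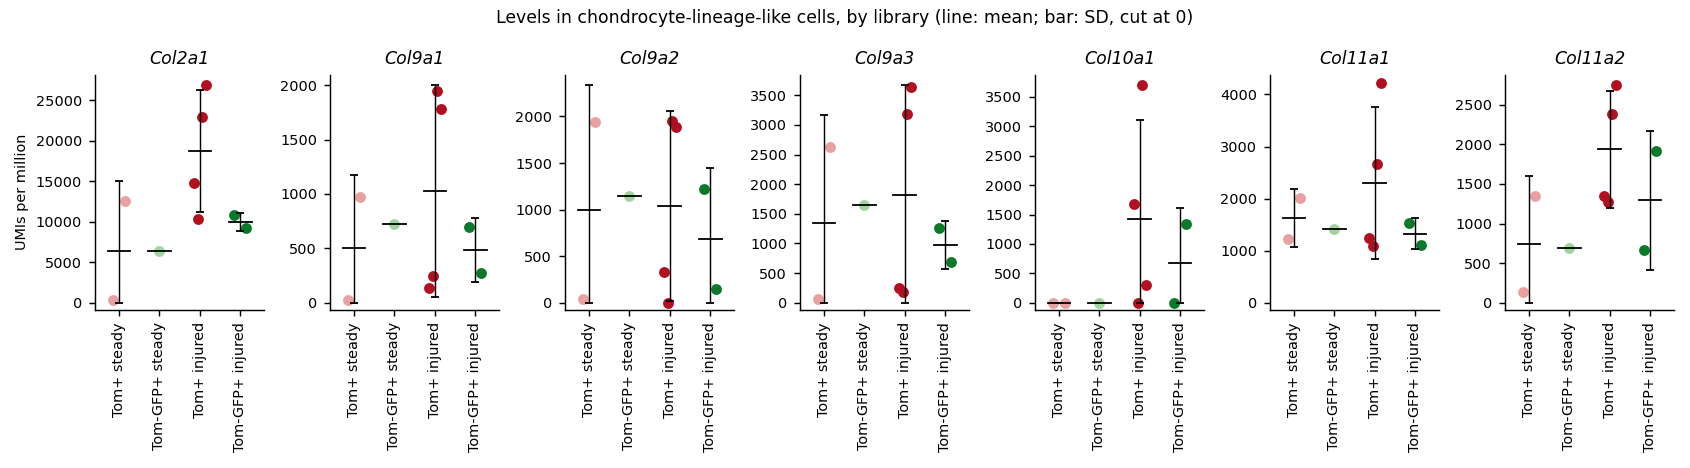
Level of each gene (CPM, linear axes that differ between panels) in chondrocyte-lineage cells, 1 point per library, by lineage and state, with the mean as a line and the SD as a bar cut at 0. Steady-state and injured libraries overlap for 6 genes, and *Col10a1* is above 0 in 4 injured libraries only.

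Between injured and steady-state Tom+ chondrocyte-lineage cells, none of the 7 members passed a false discovery rate of 0.05 in edgeR's quasi-likelihood model, in which 0.877% of 3192 genes did (28 genes, all lower after injury). DESeq2 also called no member, and 1 member, *Col10a1*, had an unadjusted p under 0.05, beside 8.99% of genes. *Col2a1* was at 18753 ± 7534 after injury (n = 4) and 6423 ± 8655 in the steady state (n = 2), a log2 difference of 1.37 (SE 1.05, edgeR adjusted p = 0.769). *Col11a2* differed by 1.18 (SE 0.79, edgeR adjusted p = 0.745), *Col9a1* by 0.78, *Col11a1* by 0.41, *Col9a3* by 0.23 and *Col9a2* by -0.14. The interval of the *Col2a1* difference, from -0.68 to 3.42, covers no change and a rise alike. Without steady-state Tom+ library 2 the *Col2a1* difference was 6.10 and that of *Col9a2* 4.70, where the remaining steady-state Tom+ library held 14 *Col2a1* and 2 *Col9a2* UMIs.

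Between lineages after injury, all 7 members were higher in Tom+ than in Tom-GFP+ chondrocyte-lineage cells, by log2 differences up to 1.11 (*Col9a1*), and none passed (edgeR adjusted p from 0.842 to 0.962). Of all 3192 genes 0% passed in that comparison. An unadjusted p under 0.05 was reached by 218 genes (6.83%), and DESeq2 called 15 genes, with no member among either. *Col2a1* was at 18753 ± 7534 in Tom+ (n = 4) and 10000 ± 1140 in Tom-GFP+ libraries (n = 2).

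*Col10a1*, the marker of hypertrophic cartilage, was found in none of the 54 steady-state chondrocyte-lineage cells and in 13 of the 91 injured ones. The level per library was 0 in all 3 steady-state libraries and 1671, 0, 3695, 302, 0 and 1341 CPM in the injured ones. Injured Tom+ library 2 and Tom-GFP+ library 1 were thus at 0, as the steady-state libraries were. The share of injured cells was 14.3% (7.83 to 23.2), and 0 of 54 allows a share of cells with a UMI of up to 5.56% by a floor of 3 cells (6.60% by the exact interval). These limits pool cells over libraries and do not bound the cells that express the gene. The median depth was 9707 UMIs in the steady-state and 8588 in the injured cells, and after thinning the numbers were 0 of 44 and 11 of 76. Pooled over both lineages the injured cells held 1129 CPM, 215-fold the floor of 3 counts over the pooled steady-state cells (5.25 CPM). In Tom+ cells alone the level was 191-fold its floor. These folds count UMIs as independent, while 10 cells held 98.4% of them, so they set no lower bound on the difference. Without injured Tom+ library 3, which gave 512 of the 1026 UMIs, the folds were 127 and 102.

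In Tom+ cells the difference in *Col10a1* did not pass across genes (edgeR quasi-likelihood fit, Benjamini-Hochberg adjusted p = 0.404). It passed with no filter on low counts (edgeR adjusted p = 2.80e-16), where 1.07% of genes did, and without integration (3.64e-17), where 6.22% did. Without integration the class kept at least 5 cells in 2 injured Tom+ libraries and 1 steady-state one, so that fit has a lone steady-state library. The class varied in makeup between libraries. Its summed growth plate and hypertrophic markers were at 3199, 1687 and 5890 CPM in steady state and from 4294 to 29241 after injury. Summed osteoblast markers were at 3048, 1782 and 4586 and from 3363 to 28816. The ranges of the states overlapped only through the steady-state Tom-GFP+ library. In the Tom+ libraries compared here they did not overlap. The lowest injured values, 4294 and 3363, were those of injured Tom+ library 3, above both steady-state Tom+ libraries for each sum. Both marker lists hold *Ibsp* and *Alpl*, so the sums are not independent. The part of this makeup in the *Col10a1* result was not tested.

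The 13 cells with *Col10a1* lay in 2 gates cut on other genes. Chondrocyte-lineage cells were split, after the data were seen, by summed superficial zone markers (*Prg4*, *Cilp*, *Clu*, *Abi3bp* and *Erg*) and summed growth plate markers (*Ihh*, *Ibsp*, *Mmp13*, *Panx3*, *Pth1r* and *Alpl*), which gave 89 superficial-gate cells, 42 growth-plate-gate cells and 14 in neither. These are ranges and not types, and in 25 cells the larger marker sum was under 4-fold the smaller, where the cut was 2-fold. *Prg4*, *Ibsp*, *Ihh* and *Pth1r* are among the genes that cut the gates, so their contrast between gates follows largely from the split. In the growth-plate gate 6 cells from 4 libraries held *Col10a1*, with 7 to 333 UMIs each, next to 515 to 2287 *Col2a1* UMIs. They held 4 to 2361 UMIs of *Ibsp*, which is also among the osteoblast markers used here. They also held 9 to 72 UMIs of *Pth1r*, the receptor for parathyroid hormone-related protein, and 1 or 2 of *Prg4*, the lubricin gene. The other 7 cells, from 3 libraries, lay in the superficial gate. They held 1 to 137 *Col10a1* UMIs, 2 to 126 *Col2a1* UMIs and 14 to 452 *Prg4* UMIs. They held at most 1 *Ibsp* UMI and no *Ihh* or *Pth1r* UMI. Of these, 3 cells held over 100 *Col10a1* UMIs with at most 126 *Col2a1* UMIs. Outside the class 9 stromal cells held 1 *Col10a1* UMI each.

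**Figure D3:**
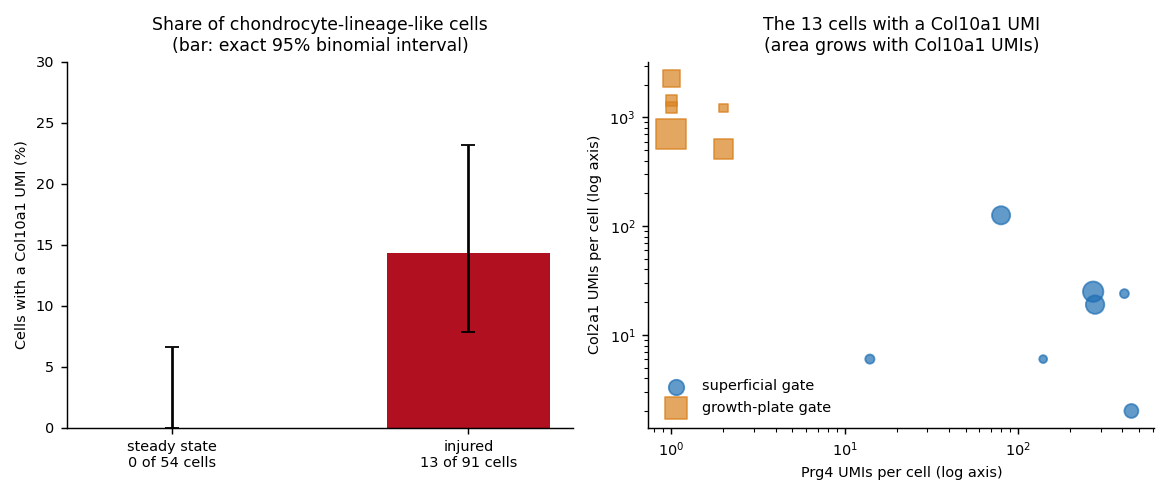
Left, share of chondrocyte-lineage cells with a *Col10a1* UMI by state, with exact 95% binomial intervals, at 0 of 54 and 13 of 91 cells. Right, *Col2a1* against *Prg4* UMIs (log axes) in the 13 cells, coloured by gate, with symbol area growing with *Col10a1* UMIs. *Prg4* is among the genes that cut the gates. The 6 growth-plate-gate cells have 515 to 2287 *Col2a1* UMIs and at most 2 of *Prg4*. The 7 superficial-gate cells have 2 to 126 and 14 to 452.

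The other members also differed between the gates, and the gates were cut on other genes of the same cells, so the values are a description. Pooled over libraries, *Col2a1* was at 2382 CPM in superficial-gate and 31697 in growth-plate-gate cells. *Col9a1* was at 135 and 1939, *Col9a2* at 284 and 2403, *Col9a3* at 407 and 3905, *Col11a1* at 852 and 3798 and *Col11a2* at 284 and 3323. Per library the order was less uniform. Of the 7 libraries with at least 3 cells in both gates, *Col9a1* and *Col11a2* were higher in growth-plate-gate cells in 6. *Col2a1* and *Col9a3* were so in 5, *Col9a2* and *Col11a1* in 4 and *Col10a1* in 1, with ties counted as not higher. *Col10a1* was at 0 in both gates in steady-state Tom+ library 2 and Tom-GFP+ and in injured Tom+ library 2 and Tom-GFP+ library 1. *Col9a2* was at 0 in both gates in injured Tom+ library 2. Growth-plate-gate cells were 10 of 54 in the steady state and 32 of 91 after injury.

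With the main cell filter and classes, collagen IX relative to *Col2a1* was lower in every injured library than in the steady-state ones. This ratio was chosen after its values were seen, so it is a description with no test. For every 100 *Col2a1* UMIs in chondrocyte-lineage cells there were 42.9, 44.2 and 55.3 UMIs of the 3 collagen IX chains in the steady-state libraries and 4.78, 4.13, 30.8, 27.2, 29.4 and 12.2 in the injured ones. The lowest steady-state value rests on 14 *Col2a1* UMIs. The ranges overlapped in some other settings. With a stricter filter (at least 1000 genes, at most 5% mitochondrial UMIs) injured Tom-GFP+ library 1 was at 49.2. Steady-state Tom+ libraries 1 and 2 were then at 42.9 and 44.2. Injured Tom-GFP+ library 2 was at 48.8 both without integration and with classes set by per-cell marker gates. Steady-state Tom+ library 2 was at 43.4 and 44.1 there. Injured Tom+ library 1, at 4.78, was the one injured library deposited with the same older gene list format as the steady-state ones, and the newer format held no steady-state library. The mean difference in the log2 ratio, averaged over lineages, was -1.69, injured less steady state, beside an SD of 1.22 within groups, and it ranged from -2.0 to -1.38 with each library left out in turn. The value of injured Tom+ library 1 rests largely on 1 cell. With the cell holding most *Col2a1* left out of each library, it moved to 15, the other injured libraries were at 3.94, 37.1, 28.2, 49.2 and 23.8 and the steady-state ones at 57.1, 61.8 and 75.4. UMIs tag 5′ ends of transcripts and are not divided by length, so the ratio compares libraries and not the abundance of the chains.

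The ratio was lowest in injured Tom+ libraries 1 and 2 and in Tom-GFP+ library 2. In these libraries summed osteoblast markers in the class lay above summed chondrocyte markers (21439 and 18719, 10977 and 4669, 28816 and 12269 CPM). In the others the chondrocyte markers were higher. With classes set by per-cell marker gates the ratio was 4.34, 8.29 and 48.8 in these libraries. The part of the class makeup in the ratio was not tested. In growth-plate-gate cells alone the ratio was 41.3 and 57.8 in steady-state Tom+ library 2 and Tom-GFP+. The 1 such cell of steady-state Tom+ library 1 held no UMI of either collagen. In the injured libraries the ratio was 3.62, 4.90, 31.5, 27.1, 23.4 and 3.57. In superficial-gate cells it was 42.9, 76.4 and 83.2 and then 21.3, 2.56, 24.5, 33.5, 48.3 and 48.8, so that the injured values there reached the steady-state range. In injured Tom+ library 2 *Col9a2* had no UMI in the class, where *Col9a1* had 31 and *Col9a3* 22. *Col9a3* gave from 35.4 to 61.9% of the collagen IX UMIs over the 9 libraries.

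**Figure D4:**
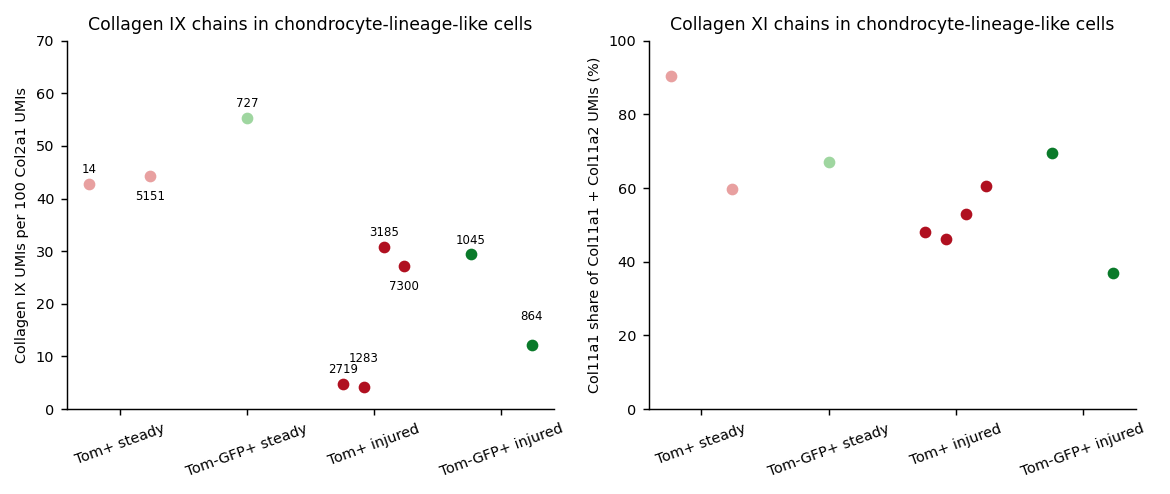
Left, collagen IX UMIs per 100 *Col2a1* UMIs, with the number of *Col2a1* UMIs beside each point, and right, *Col11a1* as a percentage of collagen XI UMIs, in chondrocyte-lineage cells, 1 point per library, by lineage and state. The 6 injured libraries lie at 4.13 to 30.8 collagen IX UMIs per 100 *Col2a1* UMIs and the 3 steady-state ones at 42.9 to 55.3.

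The balance of the collagen XI chains also varied. *Col11a1* gave 90.5, 59.8 and 67.1% of the *Col11a1* and *Col11a2* UMIs in steady-state chondrocyte-lineage cells and 48.0, 46.1, 52.9, 60.6, 69.6 and 36.8% in injured ones, with overlapping ranges. Between classes, pooled over libraries, *Col11a1* gave 57.3% in chondrocyte-lineage, 71.5% in osteoblast-lineage, 88.5% in *Thy1*+ fibroblast, 94.7% in tenocyte-lineage, 96.3% in proliferating and 98.5% in injury-induced fibroblast cells. In the fibroblast classes *Col11a2* reached at most 5.06 CPM in a library, in injury-induced cells.

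Of the 363 osteoblast-lineage-like cells, per-cell marker gates named 136 osteoblast-lineage, 66 *Thy1*+ fibroblast, 41 injury-induced, 28 tenocyte-lineage and 10 chondrocyte-lineage, and left 81 ungated. Osteoblast-lineage-like cells, as clustered, held the collagen XI chains at the next highest level. After chondrocyte-lineage cells they were the highest stromal class in 7 of 9 libraries for *Col11a2* and 6 of 9 for *Col11a1*, but in 5, 4 and 3 for *Col9a2*, *Col9a3* and *Col9a1*, 3 for *Col2a1* and 1 for *Col10a1*. Of these cells 33.6% held a *Col11a1* UMI and 6.61% a *Col11a2* UMI, above the 5.30% and 1.32% of immune-like and endothelial-like cells. For *Col2a1* the share, 3.86%, was below the 5.96% of those cells. Thinned to 5000 UMIs per cell the order turned, at 3.08% against 1.89%, with overlapping intervals. The share thus did not set the class apart from those cells for *Col2a1*. The highest osteoblast-lineage cells held 50, 7 and 5 *Col2a1* UMIs, against at most 1 in an immune-like or endothelial-like cell. The mean *Col2a1* level of 50.5 CPM in osteoblast-lineage cells fell to 8.53 without injured Tom-GFP+ library 1. *Col11a1* there was at 11.3, 45.7 and 260 CPM in the steady-state libraries and at 366, 143, 269, 94.5, 437 and 1323 in the injured ones. All 4 injured Tom+ libraries lay above both steady-state Tom+ libraries, and the steady-state Tom-GFP+ library lay among the injured values. *Col11a1* UMIs were found in 3 of 38, 10 of 81 and 10 of 25 steady-state cells and in 36 of 48, 31 of 96, 6 of 19, 12 of 32, 8 of 13 and 6 of 11 injured cells. In injured Tom+ library 3, 41 of 50 UMIs came from 1 cell, and in injured Tom-GFP+ library 2, 149 of 161 did.

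In Tom+ osteoblast-lineage cells *Col11a1* was at 218 ± 123 after injury (n = 4) and 28.5 ± 24.3 in the steady state (n = 2), a log2 difference of 2.85 (SE 0.73). The quasi-likelihood fit of edgeR gave an adjusted p of 0.0523, short of the threshold. DESeq2 gave an adjusted p of 0.00430, and *Col11a1* passed in 8 of 22 alternative settings, with edgeR adjusted p over all of them from 1.09e-11 to 0.299. None of the 6 members tested passed, where 4.26% of 5515 genes did, and the injured values lay wholly above the steady-state ones in 12.7% of genes. An unadjusted p under 0.05 was reached by *Col11a1* and *Col11a2*, and by 19.4% of genes. *Col11a2* was at 3.78, 5.71 and 14.5 in the steady state and at 120, 27.6, 258, 0, 350 and 773 after injury, a Tom+ log2 difference of 4.14 (SE 1.55, edgeR adjusted p = 0.164). Injured Tom+ library 4 held none, and the 48 UMIs of library 3 came from 1 cell. *Col2a1* differed by 1.47 (edgeR adjusted p = 0.644), *Col9a2* by 0.52 and *Col9a3* by -1.69. *Col9a1* was at 0 in both steady-state Tom+ libraries and at 5.47 ± 6.47 after injury (n = 4, edgeR adjusted p = 0.369).

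Between lineages after injury, the 6 members tested in osteoblast-lineage cells were lower in Tom+ than in Tom-GFP+ libraries, and 5, all but *Col9a1*, had an unadjusted p under 0.05, where 8.05% of all genes did. For these 5 the Tom+ values lay wholly below the Tom-GFP+ ones, as in 7.8% of genes. *Col2a1* differed by -4.29 (SE 0.77, edgeR adjusted p = 0.115), *Col9a2* by -4.90, *Col9a3* by -6.12, *Col11a2* by -2.67 and *Col11a1* by -2.05 (SE 0.55, edgeR adjusted p = 0.283). None passed, against 0.0544% of genes (3), and DESeq2 called none of them. The direction turned for *Col9a2* without integration (0.14) and with per-cell marker gates (2.08), and for *Col9a3* with those gates (0.049). In injured Tom-GFP+ library 1 *Col2a1* was at 386 CPM from 53 UMIs, of which 50 lay in 1 cell, and summed chondrocyte markers in the osteoblast-lineage cells of that library were at 4986 CPM against 477 to 1731 in the others. The part of such cells in the lineage difference was not tested. Without injured Tom-GFP+ library 2, *Col2a1* (edgeR adjusted p = 0.00184), *Col9a2* and *Col9a3* passed, where 0.619% of genes (35) did and the Tom-GFP+ group was 1 library.

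**Figure D5:**
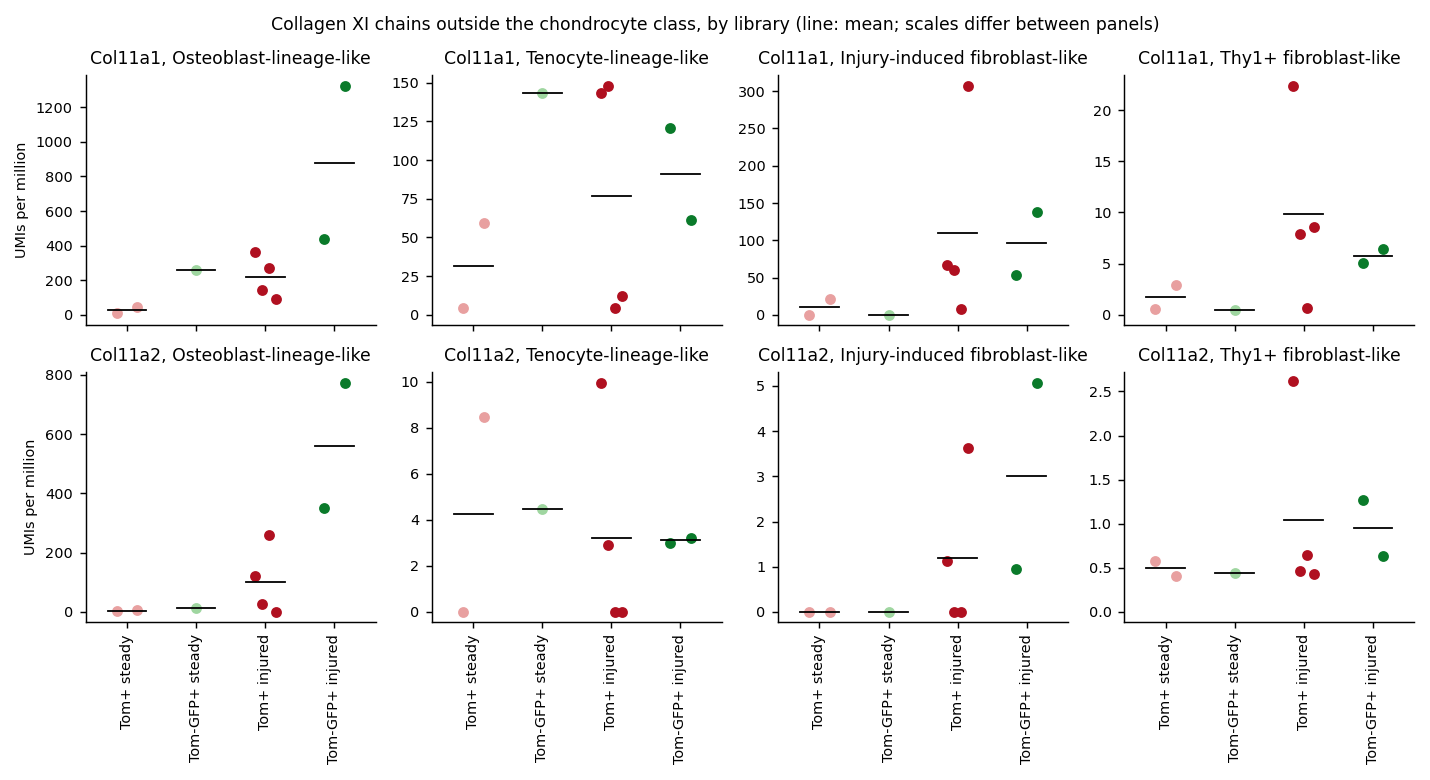
*Col11a1* and *Col11a2* (CPM, linear axes that differ between panels) in osteoblast-lineage, tenocyte-lineage, injury-induced and *Thy1*+ fibroblast cells, 1 point per library, by lineage and state, with a line at the mean. *Col11a1* in osteoblast-lineage cells lies at 11.3 and 45.7 in steady-state Tom+ libraries and at 94.5 to 366 in injured Tom+ ones, while *Col11a2* in injury-induced cells reaches 5.06 at most.

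Of the 312 tenocyte-lineage-like cells, per-cell marker gates named 84 tenocyte-lineage, 126 *Thy1*+ fibroblast and 72 injury-induced, and left 26 ungated. The class, as clustered, held *Col11a1* at 4.37, 59.4 and 144 CPM in the steady state. After injury it was at 143, 148, 4.44, 12.2, 120 and 61.2, with overlapping ranges. The Tom+ difference was 0.98 (SE 1.05, edgeR adjusted p = 0.643), where 5.54% of genes passed and 21.9% had an unadjusted p under 0.05. In *Thy1*+ fibroblasts (1855 cells) *Col11a1* was at 0.581, 2.88 and 0.439 in the steady state. After injury it was at 22.4, 7.93, 0.645, 8.63, 5.10 and 6.39 there, a Tom+ difference of 2.42 (SE 0.98, edgeR adjusted p = 0.156). *Col11a1* did not pass there, where 8.78% of genes did, and was the 1 member of 2 tested with an unadjusted p under 0.05, beside 24.9% of genes, while *Col2a1* differed by -0.28. *Col11a1* UMIs were found in 3.34% of *Thy1*+ cells against 5.30% of the immune-like and endothelial-like cells (2.53% and 0.943% thinned, with overlapping intervals). Pooled levels were 7.37 and 7.09 CPM, the latter from 10 UMIs. The share and the pooled level thus did not set the *Thy1*+ class apart from background. A single *Thy1*+ cell held 22 *Col11a1* UMIs, against at most 3 in a background cell. Between lineages after injury *Col11a1* differed by -0.20 in tenocyte-lineage and 0.92 in *Thy1*+ cells, and *Col2a1* by 1.10 in the latter (edgeR adjusted p of at least 0.933). Injury-induced fibroblasts, named by *Lrrc15*, *Adam12*, *Tnc* and *Mdk*, held *Col11a1* at 66.6, 59.6, 8.20, 307, 53.9 and 138 in the injured libraries and at 0, 21.7 and 0 in the steady-state ones, in which the class had 7, 15 and 23 cells. Lining fibroblast-like synoviocytes (FLS, 527 cells) held *Col11a1* UMIs in injured Tom+ library 4 only, 5 in all, and no member entered the test there. The order of mean *Col11a1* levels was chondrocyte-lineage (1837 ± 1027), osteoblast-lineage (328 ± 400), tenocyte-lineage (77.4 ± 62.3), injury-induced (72.8 ± 98.1), proliferating (50.1 ± 60.9), immune (11.8 ± 26.4), adipocyte (8.49 ± 12.0) and *Thy1*+ fibroblast cells (6.11 ± 6.87), and each class overlapped in range with the class above it.

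Summed over all stromal cells, the members varied most between the steady-state Tom+ libraries, which held 7 and 36 chondrocyte-lineage cells. In Tom+ libraries *Col2a1* was at 5.64 and 1098 CPM in the steady state and at 186, 131, 440 and 995 after injury. None of the 7 members passed in the Tom+ injury comparison, where 13.4% of 14882 genes did, and edgeR adjusted p ranged from 0.179 (*Col10a1*) to 0.949 (*Col11a1*). Apart from *Col10a1*, the members differed by log2 values from -1.59 (*Col9a2*) to -0.10 (*Col11a1*). The median log2 difference over the members was -0.29, beside 0.04 over all genes. In Tom-GFP+ cells, with 1 steady-state library whose spread is taken from the other groups, none passed against 0.887% of genes, and between lineages after injury none passed against 0.047%. In these 3 comparisons DESeq2 also called no member, and no member had an unadjusted p under 0.05, which 32.4%, 23.2% and 6.44% of genes had. In the test of whether injury acted differently in the lineages edgeR called 0% of genes. DESeq2 called 5 and 346 (2.32%) had an unadjusted edgeR p under 0.05, with no member among them.

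Genes that act with these collagens were counted from fixed lists over all Tom+ stromal cells, where 6.4% of all genes rose and 7.03% fell. Of 8 fibril partner chains, which form or join collagen I, III, V and related fibrils, 7 rose after injury and none fell (median 1.49, beside 0.04 over all genes). *Col1a1*, the main fibril chain of bone and fibrous tissue, was at 2060 and 2138 CPM in the steady state and from 4867 to 9172 after injury (log2 difference 1.91, SE 0.28, edgeR adjusted p = 0.0100). *Col5a3* rose by 1.72 and *Col24a1* by 1.51. None of the 7 cartilage members passed in the same comparison. Of 21 genes for procollagen folding and processing, 5 rose and 1 fell (median 0.63). *Plod2*, a lysyl hydroxylase, was at 92.8 and 123 in the steady state and from 273 to 403 after injury, a rise of 1.72, and *Adamts14*, a procollagen N-proteinase, rose by 2.31. *Pcolce2*, an enhancer of C-propeptide removal, was at 952 and 941 and then at 93.3 to 173 (log2 difference -2.92, SE 0.25, edgeR adjusted p = 0.00145).

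Of 16 fibril-bound and aggregating cartilage proteins, all tested, 1 rose and 4 fell (median -0.73). *Matn2*, a matrilin of many tissues, rose by 2.33 (edgeR adjusted p = 0.00477). *Comp*, which binds collagens II and IX, was at 1456 and 2922 in the steady state and from 430 to 866 after injury (-1.65, SE 0.34), and *Cilp2* differed by -2.55. Of 11 cartilage transcription factors tested, none rose and 2 fell, *Nkx3-2*, a repressor of chondrocyte hypertrophy (-1.92, SE 0.40, edgeR adjusted p = 0.0220), and *Mef2c*, which drives it (-1.78, SE 0.34, edgeR adjusted p = 0.0192). *Sox9*, *Sox5* and *Sox6*, the activators of *Col2a1*, were among those that did not pass. Of 7 collagen receptors, 1 rose (*Itgb1*, by 0.72) and 2 fell (*Itga2*, -2.05, and *Ddr2*, -0.57). In Tom+ osteoblast-lineage cells, where 1.43% of all genes rose and 2.83% fell, 4 of 8 partner chains and 4 of 17 processing genes rose and none of either list fell, while 2 of 6 cartilage transcription factors fell, *Mef2c* and *Runx2*, and no gene of the other lists passed. In chondrocyte-lineage cells no gene of the 5 lists passed.

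The genes whose levels were most like those of the members were found over 73 sums of a class in a library, which share libraries and depth, so Pearson's r on log2 values is a description. The members themselves were left out of this ranking, although some of them were more alike (*Col2a1* and *Col9a1*, 0.912). Of other genes, *Col2a1* was most like *Ncmap* (0.911), *Gdf6* (0.900), *Meltf* and *Ppp1r1b* (both 0.880) and *Snorc* (0.877), of which *Snorc* is a class marker. *Col10a1* was most like *Serpina1b* (0.768), *Ihh* (0.720), the Indian hedgehog ligand of prehypertrophic chondrocytes, *Panx3* (0.711), *Slc13a5* (0.660) and *Meltf* (0.655). *Col11a1* was most like *Acan* (0.917), the aggrecan gene and a class marker, 1500015O10Rik (0.874), *Camk4* (0.857), *Fmod* (0.854) and *Capn6* (0.811), and *Col11a2* was most like *Rhbdl2* (0.891), *Scube1* (0.885), *Wif1* (0.862), *Slc13a5* (0.855) and *Fzd9* (0.839). The lists of *Col2a1* and *Col11a1* shared no gene.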

How the data were processed

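Single-cell RNA sequencing of sorted knee cells (10x Genomics 5′ kit, NextSeq 500) was deposited by the authors as raw UMI counts per gene and barcode for barcodes called as cells. Cell Ranger and GRCm38.p6 are named in the submitters' processing notes, and the headers of 5 injured libraries give version 3.0.2. The other 4 libraries, all steady-state ones included, use an older gene list format. No normalization had been applied.

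Libraries were integrated by canonical correlation in Seurat 5.3.0 (R 4.3.3) on 2000 variable genes, with 46 genes held out, the 7 members among them, and clustered on 30 dimensions at resolution 1. A cluster was named where at least 75% of its markers were higher than in other cells with a median log2 fold of at least 0.5, a rule set after the clusters were seen, and cluster 4 (486 cells) stayed unnamed. Scrublet (scanpy 1.11.5) called 47 doublets, which were kept, and an alternative left out high scores. Counts were summed over each class with at least 5 cells in a library, filtered by expression, scaled by TMM and tested with edgeR 4.0.16 (quasi-likelihood, Benjamini-Hochberg over all genes, false discovery rate 0.05). DESeq2 1.42.0 and other alternatives were tried. Tests were checked on simulated data. Genes were placed on GENCODE vM21, in which 54495 of the 54532 Ensembl genes were found. Precision is set by the few chondrocyte-lineage cells.

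The members and lists were chosen with earlier results of these data known. All 7 members are reported in every comparison they entered, singly or as a range. Of each list, up to 3 genes with the largest change among those that passed in the Tom+ stromal injury comparison are named, and for likeness the 5 genes with the highest correlation, members left out.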

Additional observations from a re-analysis of the deposited data

Results flagged for a closer look

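Of 19 groups of 4 libraries examined, 2 held a library far from the other 3, and chance flags about 1 in 20 such groups. *Col11a1* over all stromal cells was at 203 CPM in injured Tom+ library 4, which lay apart from the other injured Tom+ libraries at 46.1 to 69.4. *Col2a1* in osteoblast-lineage cells was at 19.0 CPM in injured Tom+ library 1, which lay apart from the other injured Tom+ libraries.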

How the results depend on the processing

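The main limits are the few chondrocyte-lineage cells per library, the pair of steady-state Tom+ libraries, of which 1 held 14 *Col2a1* UMIs, and the single steady-state Tom-GFP+ library. Lineage tests treat matched mice as independent. Where a value below differs from the reported one, the cause was not tested. A result fitted with a lone library in a group assumes that it varies like the other groups.

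The members' differences in Tom+ chondrocyte-lineage cells were not past the threshold and turned direction in several settings. With the replicate block *Col11a1* was at -0.56, *Col9a1* at -1.33 and *Col9a3* at -2.42, and with the gene list format as a term they were at -0.46, -2.15 and -2.59. Without integration *Col11a1* was at -0.12 and *Col9a3* at -0.37. With per-cell marker gates *Col11a1* was at -0.20, *Col11a2* at -0.075, *Col9a1* at -0.29 and *Col9a3* at -0.77, and with at least 10 cells *Col9a1* was at -0.11 and *Col9a3* at -0.72. Between lineages in osteoblast-lineage cells, *Col9a2* was at 0.14 without integration and 2.08 with per-cell gates, and *Col9a3* at 0.049 with gates. The collagen IX difference, which has no test, ranged from -1.77 to -1.0 over the other cell filters, classes and minimum cell numbers.

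Without integration the mean level in chondrocyte-lineage cells was 29958 for *Col2a1*, 2541 for *Col9a1*, 3228 for *Col9a2*, 4965 for *Col9a3*, 3865 for *Col11a1* and 3032 for *Col11a2*.

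Members past the threshold rose from 0 as follows, each beside the share of all genes called. With no filter on low counts there was 1 in *Thy1*+ (8.7%), stromal (10.1%) and chondrocyte-lineage injury (1.07%), 2 in osteoblast-lineage injury (4.11%) and 5 in the osteoblast lineage comparison (0.913%). Without integration there was 1 in chondrocyte-lineage injury (6.22%), 2 in osteoblast-lineage injury (3.7%), 1 (*Col10a1*) in the osteoblast lineage comparison (0.0561%) and 7 in the chondrocyte lineage comparison (4.67%). In both of these lineage comparisons the Tom-GFP+ group was then a lone library. The gene list format term gave 1 in *Thy1*+ injury (10.6%). DESeq2 (3.52%), no held-out genes (4.42%), gates (0.761%) and resolutions 0.6 (4.06%) and 1.5 (4.11%) each gave 1 in osteoblast-lineage injury.

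Genes called for injury in Tom+ cells moved from 1998 to 1114 with the format term and 1125 with the replicate block over all stromal cells. In chondrocyte-lineage cells (28) they were 0 with at least 10 cells, with the format term and with the block, 15 with gates, 167 with no filter and 181 without integration. In osteoblast-lineage cells (235) they were 17 with the format term, 24 with gates and 711 with no filter. In tenocyte-lineage cells (330) they were 27 and 742 with gates and no filter, in FLS (376) 148 and 905 with the format term and no filter, and in *Thy1*+ fibroblasts (1038) 590 at resolution 0.6, 1614 with gates and 1928 with no filter. In Tom-GFP+ cells (132) they were 213 with the format term, 932 by DESeq2 and 1220 with no filter, and for the injury by lineage term (0) they were 5 by DESeq2 and 4 with no filter.

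Genes called between lineages over stromal cells (7) were 4 with the block, 102 by DESeq2 and 167 with no filter. In chondrocyte-lineage cells (0) they were 2 with at least 10 cells, 2 with the block, 3 with no genes held out, 4 with the stricter filter, 15 by DESeq2, 21 with gates, 86 with no filter and 136 without integration. In osteoblast-lineage cells (3) they were 0 with gates, 6 with no genes held out, 7 with the stricter filter, 7 with the block, 27 by DESeq2 and 158 with no filter. In tenocyte-lineage cells (1) they were 0 with no genes held out, 2 without integration, 2 with the block and 51 with no filter. In FLS (1) they were 2 at resolution 1.5, 4 by DESeq2, 5 with the format term, 9 with the block and 70 with no filter. In *Thy1*+ fibroblasts (2) they were 1 with gates, 4 at resolution 0.6, 4 without integration, 4 with the format term, 5 with no genes held out, 6 with the block, 35 by DESeq2 and 374 with no filter.

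With each library left out in turn, genes called for injury in Tom+ cells ranged from 151 to 2233 over stromal cells, 0 to 39 in chondrocyte-lineage, 0 to 279 in osteoblast-lineage, 49 to 414 in tenocyte-lineage cells, 24 to 505 in FLS and 116 to 1388 in *Thy1*+ fibroblasts, and in Tom-GFP+ cells from 3 to 1095. Between lineages they ranged from 0 to 11 over stromal cells, 0 to 4 in chondrocyte-lineage, 1 to 35 in osteoblast-lineage, 0 to 1 in tenocyte-lineage cells, 1 to 4 in FLS and 2 to 20 in *Thy1*+ fibroblasts. Members past the threshold ranged from 0 to 1 in osteoblast-lineage injury and from 0 to 3 between lineages there. Member differences over Tom+ stromal cells ranged from -1.26 to 6.33 for *Col2a1*, -1.59 to 5.30 for *Col9a1*, -2.64 to 5.31 for *Col9a2*, -2.38 to 5.18 for *Col9a3*, -0.93 to 2.17 for *Col11a1* and -1.24 to 4.16 for *Col11a2*, with the highest value of each without steady-state Tom+ library 2. In Tom+ chondrocyte-lineage cells they ranged from -0.10 to 5.65 for *Col9a1*, -1.07 to 4.70 for *Col9a2*, -0.71 to 4.93 for *Col9a3* and -0.057 to 1.05 for *Col11a1*.

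Deviations of same-numbered libraries correlated at 0.0649 and 0.0702 between steady-state and injured Tom+ and at 0.257 and 0.0687 between injured Tom+ and Tom-GFP+. Between steady-state Tom+ and injured Tom-GFP+ the value was -0.102. In a group of 2 libraries the deviations mirror each other, so differently numbered libraries gave the same sizes with the opposite sign. The correlations therefore cannot decide whether the numbers mark matched mice. The labels do not say which mice were matched. The numbers were thus not taken as pairs, and the replicate block stands as an alternative alone.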
